A study of Mus musculus with 4 samples.

Results

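The genes described here are 9 genes of vascular endothelium (Pecam1, Cdh5, Kdr, Flt1, Tek, Tie1, Eng, Emcn and Egfl7) and the ligand gene Vegfa, taken by name from the 44509 gene symbols of a mouse testis RNA-seq table. All 10 were found, each on 1 row. Whole testis was profiled in 4 libraries. Per the labels, all mice carried busulfan-induced oligozoospermia, with 2 libraries from mice given no further named treatment and 2 from mice that also received Cus-1, a resin glycoside from cuscutae. Busulfan, a DNA-alkylating agent, depletes the germ cells that divide. The labels give no strain, age, dose or time, no untreated group, and do not say whether a library was 1 animal or a pool, so p-values measure only the spread between these libraries. The titles of the busulfan libraries begin with BPA and those of the treated ones with CUS2, and 1 treatment text naming CUS is repeated for all 4, so the grouping rests on the source label.

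Endothelial cells line blood vessels, which in the testis run between the seminiferous tubules and do not enter them. VEGF-A, secreted by Leydig and Sertoli cells among others, binds the receptor tyrosine kinases VEGFR2 (Kdr), which carries most of the growth signal, and VEGFR1 (Flt1), which binds VEGF-A tightly, signals weakly and also exists as a secreted form that traps the ligand. Angiopoietins act on a separate receptor, Tie2 (Tek), with Tie1 as its partner, and keep vessels quiescent or loosen them. Endoglin (Eng) is a co-receptor for ligands of the TGF-beta family, VE-cadherin (Cdh5) and PECAM-1 (Pecam1) join endothelial cells to each other, endomucin (Emcn) is a surface sialomucin of capillaries and veins, and Egfl7 is secreted by endothelial cells into their matrix.

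The promoters of the ligand and its receptor pair are shown because the results below turn on these 3 genes. The sequences are RefSeq windows of 300 bases in GRCm38.p6, from 250 bases before the annotated start to 50 bases from it, read 5′ to 3′ on the gene's strand. Kdr is at chr5:75978406-75978705 on the minus strand, Flt1 at chr5:147725962-147726261 on the minus strand and Vegfa at chr17:46032328-46032627 on the minus strand. Capitals mark each match, on either strand, to 1 of 6 searched motifs: the ETS motifs AGGAAG and CGGAAG, the hypoxia response core ACGTG, the GATA motif AGATAA, the GC box GGGCGG and the TATA box TATAAA.
Kdr: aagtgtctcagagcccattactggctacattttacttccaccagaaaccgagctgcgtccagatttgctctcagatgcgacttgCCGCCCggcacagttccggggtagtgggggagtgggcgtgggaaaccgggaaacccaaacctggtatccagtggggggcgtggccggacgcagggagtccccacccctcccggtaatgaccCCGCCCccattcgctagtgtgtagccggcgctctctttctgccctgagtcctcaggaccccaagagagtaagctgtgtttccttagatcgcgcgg
Flt1: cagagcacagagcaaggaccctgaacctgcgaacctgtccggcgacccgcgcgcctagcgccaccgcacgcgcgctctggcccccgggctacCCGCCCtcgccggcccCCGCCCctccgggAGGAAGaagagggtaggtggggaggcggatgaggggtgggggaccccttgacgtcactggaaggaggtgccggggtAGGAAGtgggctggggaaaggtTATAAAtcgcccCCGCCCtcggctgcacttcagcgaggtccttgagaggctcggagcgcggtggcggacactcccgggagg
Vegfa: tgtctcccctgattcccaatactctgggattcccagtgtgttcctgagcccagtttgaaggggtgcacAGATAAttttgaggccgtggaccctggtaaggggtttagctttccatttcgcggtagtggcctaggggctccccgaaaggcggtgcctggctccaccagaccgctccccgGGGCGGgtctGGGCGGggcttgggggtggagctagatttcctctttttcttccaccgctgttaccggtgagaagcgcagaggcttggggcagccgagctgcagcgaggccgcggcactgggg

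The Kdr window held 2 GC boxes and no other searched motif. The Flt1 window held 3 GC boxes, 2 copies of the ETS motif AGGAAG and a TATA box whose first base lay 31 bases before the start. The Vegfa window held 2 GC boxes and 1 GATA motif. Over all 32851 windows of this length in the table, 35.7% held a GC box, 35.4% AGGAAG, 16.9% CGGAAG, 13.6% TATAAA, 11.2% AGATAA and 19.6% ACGTG. Windows were found for 8 of the 10 genes, without Pecam1 and Cdh5. An ETS motif of either form stood in a window of 5 of these 8 genes (Egfl7, Emcn, Eng, Flt1 and Tie1), Egfl7 having 3 windows and Vegfa 2. Counted by window it stood in 6 of 11, against 46.5% of all windows. The GC box stood in 4 of the 8, Egfl7, Flt1, Kdr and Vegfa. The core ACGTG stood in 1, the other Vegfa window at chr17:46025114-46025413 on the minus strand. That window lies inside the annotated Vegfa gene (46016993 to 46032369), and the Vegfa window printed above held no ACGTG. No matches of different motifs overlapped in these windows, and a match is a run of letters, not a shown binding site.

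Endothelial and Vegfa transcripts were measured at lower levels after Cus-1, Kdr by the largest factor and Flt1 by the smallest, though most of these differences change sign when libraries are centred on Sertoli genes. In 8 of the 10 genes both Cus-1 libraries lay below both busulfan libraries. The exceptions were Cdh5 and Flt1, whose groups overlapped. Of the 19837 tested genes in the whole table, 31.7% lay lower in both Cus-1 libraries and 36.6% lay higher in both, so separated groups were common in these data. None of the 9 tested passed the adjusted threshold, and neither did any gene of the table (0 of 19837, 0% called by limma at an adjusted p under 0.05). Without Cus-1 replicate 2 the table had 1709 genes higher and 580 lower past it, and without Cus-1 replicate 1 it had 8 and 37, with none of the 9 among them. At an unadjusted limma p under 0.05, Kdr, Emcn and Vegfa were lower, against 9.96% of all tested genes lower and 18.0% higher, and no endothelial gene was lower at that p without busulfan replicate 1 or without Cus-1 replicate 1. The median log2 fold change on log2(FPKM + 1) was -0.48 for the 9 endothelial genes and 0.04 for all tested genes, and the former was -0.27 without busulfan replicate 1. Summed over the 9 genes, the level was 52.8 and 43.3 FPKM in the busulfan pair against 29.4 and 33.7 in the Cus-1 pair. FPKM is a share of each library. Fewer endothelial cells, less RNA per cell and more RNA from other cells therefore cannot be told apart in whole tissue.

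**Figure D1:**
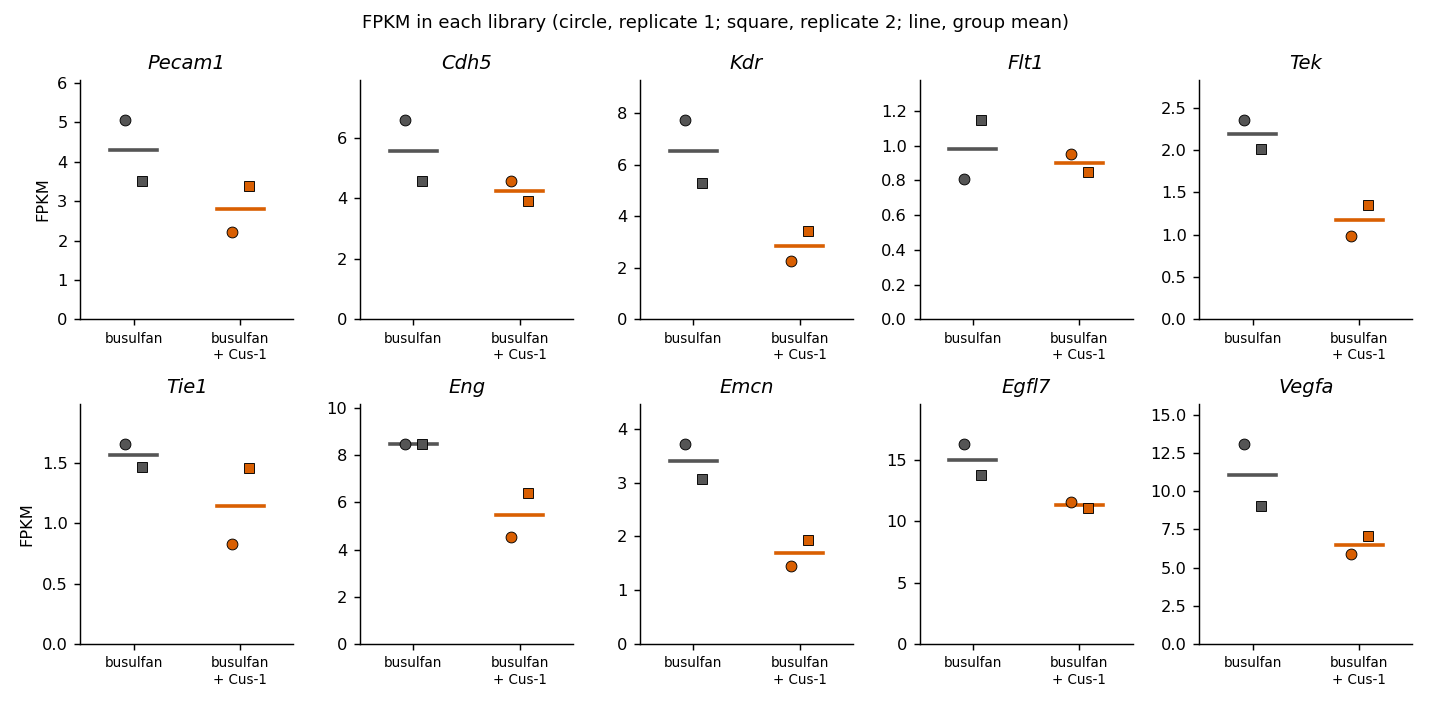
FPKM (linear axis from 0) of the 9 endothelial genes and Vegfa in each of the 4 libraries, with circles for replicate 1, squares for replicate 2 and a line at the group mean. Both Cus-1 libraries lie below both busulfan libraries in 8 panels, and the groups overlap in Cdh5 and Flt1.

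The 4 libraries had similar totals, from 726041 to 742689 summed FPKM, with a depth of roughly 12.2 to 14.2 M fragments as judged from the spacing of low values. None of the listed Sertoli, Leydig, spermatocyte and spermatid markers was at 0 in any library. Being above 0 is a low bar at this depth and does not test the tissue label. Cell markers differed between the groups along with the endothelial genes, where 31.7% of all tested genes lay lower in both Cus-1 libraries and 36.6% higher. Each of the 13 tested Sertoli genes lay below the busulfan pair in both treated libraries, with summed levels of all 14 listed genes of 6294 and 4485 FPKM against 2942 and 3694. All 10 spermatocyte genes were higher in both (1191 and 1827 FPKM summed with busulfan, 2879 and 2629 with Cus-1), as were all 10 spermatid genes (3105 and 3222 FPKM, against 11628 and 4210). Macrophage genes summed to 491 and 365 FPKM in the busulfan pair against 244 and 332 in the Cus-1 pair. The part of these shifts in the endothelial values was not tested.

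Kdr, the main signalling receptor for VEGF-A, on chromosome 5 (75932827 to 75978458, minus strand), was at 7.76 and 5.31 FPKM in the busulfan pair against 2.25 and 3.42 in the Cus-1 pair. The groups did not overlap, and the higher Cus-1 library stood well under the lower busulfan library. The group means were 6.54 ± 1.73 and 2.84 ± 0.827 FPKM (SD, n = 2), a 2.31-fold difference. The log2 fold change was -0.97 (SE 0.29, 95% interval -1.72 to -0.23, limma adjusted p = 0.152). It was the largest of the 10 in size. Under all 11 alternative settings it stayed negative, from -1.21 without busulfan replicate 2 to -0.33 with libraries centred on Sertoli genes. Those that change only the filter or the trend cannot move a fold change.

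Flt1, the tight-binding VEGF receptor, also lies on chromosome 5 (147561604 to 147726011, minus strand). It was at 0.81 and 1.15 FPKM in the busulfan pair against 0.95 and 0.85 in the Cus-1 pair, with overlapping groups. Only 1 library reached 1 FPKM, so Flt1 did not pass the filter of 1 FPKM in at least 2 libraries. Its log2 difference was -0.05, with a limma interval of -0.76 to 0.66 when all genes were fitted. Before adjustment, differences of either sign within those bounds are compatible with these values. The difference was 0.07 without busulfan replicate 2 and 0.59 with libraries centred on Sertoli genes. The table gives 1 value for a gene with 6 annotated transcripts, so membrane-bound and secreted Flt1 were not separated.

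Within a library, the ratio of Flt1 to Kdr FPKM was 0.104 and 0.217 with busulfan and 0.422 and 0.249 with Cus-1. A ratio within a library does not depend on how libraries are scaled. The ratio of Flt1 to Kdr was higher in both Cus-1 libraries, although busulfan replicate 2 and Cus-1 replicate 2 stood close to each other. Flt1 rested on few fragments, an estimated 71.5 at the fewest, where counting alone gives an error of 11.8%. Whether the gap between the 2 nearest ratios, 0.217 and 0.249, exceeds counting error was not tested. With 2 libraries a group, an exact two-sided permutation test cannot go below 0.333, so ratios are given without a test.

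Vegfa, on chromosome 17 (46016993 to 46032369, minus strand), was at 13.11 and 9.07 FPKM in the busulfan pair against 5.92 and 7.08 in the Cus-1 pair. Both Cus-1 libraries were below both busulfan libraries. The means were 11.1 ± 2.86 and 6.5 ± 0.820 FPKM (SD, n = 2), and the log2 fold change was -0.67 (SE 0.25, 95% interval -1.31 to -0.04, limma adjusted p = 0.170). Without busulfan replicate 1 it was -0.43, and centred on Sertoli genes it was -0.03. The gap between the log2 fold change of Vegfa and the endothelial median was -0.19.

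The ratio of Vegfa to Kdr FPKM was 1.69 and 1.71 with busulfan and 2.63 and 2.07 with Cus-1, higher in both treated libraries. Vegfa to Egfl7 was 0.804 and 0.659 with busulfan and 0.512 and 0.641 with Cus-1, lower in both. The direction therefore depended on the endothelial gene that Vegfa was set against. The ratio of Vegfa to Flt1 was 16.2 and 7.89 with busulfan and 6.23 and 8.33 with Cus-1, and overlapped. Set against the median of the 9 endothelial genes in the same library, Vegfa was 1.22 and 1.16 log2 units higher with busulfan and 1.10 and 0.88 higher with Cus-1.

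**Figure D2:**
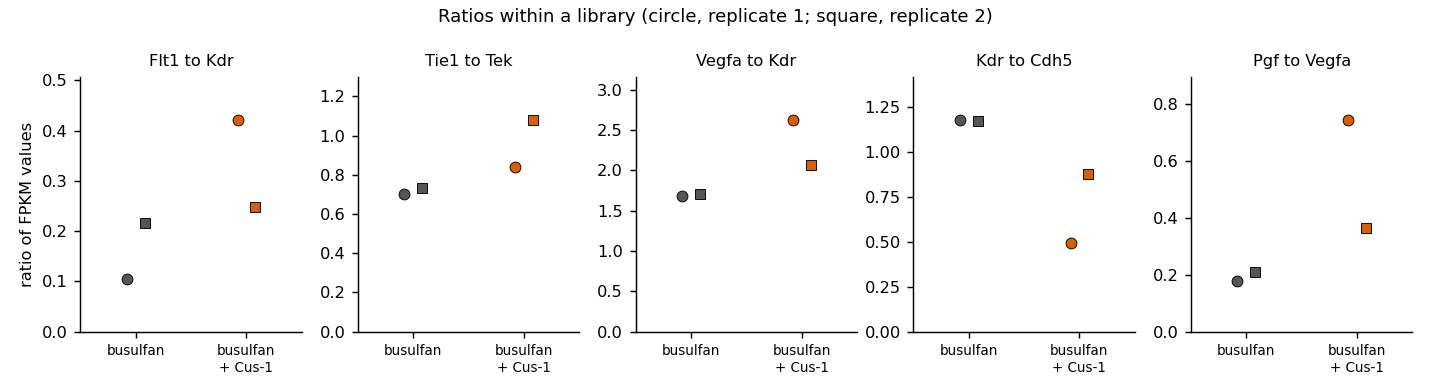
Ratios of FPKM values within each library for 5 gene pairs, on linear axes from 0, with circles for replicate 1 and squares for replicate 2. Flt1 to Kdr, Tie1 to Tek, Vegfa to Kdr and Pgf to Vegfa are higher in both Cus-1 libraries, and Kdr to Cdh5 is lower in both. Only pairs with separated groups are drawn. Vegfa to Flt1, Angpt1 to Angpt2, Vegfd to Vegfa, Nrp1 to Kdr and Egfl7 to Cdh5 overlapped and are left out. Vegfb to Vegfa and Pgf to Flt1, higher in both, and Vegfa to Egfl7, lower in both, are also not drawn.

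Tek, the angiopoietin receptor, on chromosome 4 (94739289 to 94874976, plus strand), was at 2.36 and 2.01 FPKM in the busulfan pair against 0.99 and 1.35 in the Cus-1 pair. Its groups were apart, with a log2 fold change of -0.56 (SE 0.25, limma adjusted p = 0.203). Tie1, its partner, on the same chromosome (118471191 to 118490061, minus strand), was at 1.66 and 1.47 FPKM in the busulfan pair against 0.83 and 1.46 in the Cus-1 pair. The groups of Tie1 were apart by only the last decimal of the table, since Cus-1 replicate 2 nearly equalled busulfan replicate 2. The log2 fold change of Tie1 was -0.27 (SE 0.27, limma adjusted p = 0.499), -0.06 without Cus-1 replicate 1 and -0.49 without Cus-1 replicate 2. The ratio of Tie1 to Tek FPKM was 0.703 and 0.731 with busulfan and 0.838 and 1.08 with Cus-1. Both receptors had low levels, and the fewest fragments behind a value were an estimated 50.04 for Tie1 and 65.6 for Tek, both in Cus-1 replicate 1, where counting alone gives errors of 14.1% and 12.3%. The ligands Angpt1, at 0.24 to 0.42 FPKM, and Angpt2, at 0.70 to 0.85 FPKM, were below the filter. Their ratio overlapped between the groups, at 0.553 and 0.414 with busulfan and 0.282 and 0.486 with Cus-1.

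Eng, the endoglin gene, on chromosome 2 (32646595 to 32682669, plus strand), was at 8.48 and 8.47 FPKM in the busulfan pair against 4.55 and 6.38 in the Cus-1 pair. The busulfan libraries were nearly equal and both treated libraries stood below them. The log2 fold change was -0.57 (SE 0.23, limma adjusted p = 0.184), and -0.36 without Cus-1 replicate 1. Exons of Fpgs on the opposite strand overlap those of Eng, and Fpgs was at 6.30 and 8.15 FPKM against 9.41 and 7.22, so any sharing of reads between them is unresolved without the strand setting. Acvrl1, the type I receptor that works with endoglin, was at 11.5 and 9.41 FPKM in the busulfan pair against 5.57 and 7.04 in the Cus-1 pair (log2 fold change -0.65, SE 0.22, limma adjusted p = 0.161).

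The junction genes Pecam1 and Cdh5 had smaller differences than Kdr. Pecam1, on chromosome 11 (106654217 to 106750628, minus strand), was at 5.07 and 3.52 FPKM in the busulfan pair against 2.23 and 3.38 in the Cus-1 pair. Its groups were apart by little, and the log2 fold change of -0.48 (SE 0.29, limma adjusted p = 0.294) was -0.27 without busulfan replicate 1 and -0.26 without Cus-1 replicate 1. PECAM-1 is also made by platelets and macrophages. Of 3 tested platelet genes, 1 (Pf4, at 35.3 and 35.5 against 17.7 and 25.2 FPKM) lay lower in each treated library. The other 2, Itga2b and Gp1bb, overlapped between the groups. Gp9 and Ppbp, also on the platelet list, were at no more than 0.11 and 0.15 FPKM and were not tested. Whether the Pf4 values come from platelets was not tested. Of 10 macrophage genes 6 lay lower in each, 1 lay higher and 3 overlapped. The shares over all tested genes were 31.7% lower in both and 36.6% higher in both. The part of platelets and macrophages in the Pecam1 values was not tested. Cdh5, on chromosome 8 (104101625 to 104144511, plus strand), was at 6.59 and 4.55 FPKM in the busulfan pair against 4.58 and 3.90 in the Cus-1 pair. Its groups overlapped, with a log2 fold change of -0.31 (SE 0.25, limma adjusted p = 0.417) that was -0.09 without busulfan replicate 1 and -0.54 without busulfan replicate 2. The ratio of Kdr to Cdh5 FPKM was 1.18 and 1.17 with busulfan and 0.491 and 0.877 with Cus-1, lower in both treated libraries.

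Emcn, on chromosome 3 (137341067 to 137432185, plus strand), was at 3.72 and 3.07 FPKM in the busulfan pair against 1.45 and 1.93 in the Cus-1 pair. Both Cus-1 libraries were well below both busulfan libraries, a 2.01-fold difference of the means. The log2 fold change of Emcn was -0.71 (SE 0.24, 95% interval -1.34 to -0.08, limma adjusted p = 0.163). Egfl7, on chromosome 2 (26580014 to 26593120, plus strand), was the most abundant of the 10 per length, at 16.3 and 13.8 FPKM in the busulfan pair against 11.6 and 11.1 in the Cus-1 pair. Its groups were apart, with a log2 fold change of -0.38 (SE 0.18, limma adjusted p = 0.220). Its exons overlap those of Agpat2 on the opposite strand, so reads of these genes are unresolved in the same way. Agpat2 was at 17.1 and 21.4 FPKM in the busulfan pair against 33.1 and 20.8 in the Cus-1 pair. Exons of Gm20532 and Mir126a on the same strand and of Mir126b on the opposite strand overlap as well. A strand setting would not separate the same-strand reads. The ratio of Egfl7 to Cdh5 FPKM overlapped between the groups, at 2.47 and 3.03 against 2.52 and 2.83.

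**Figure D3:**
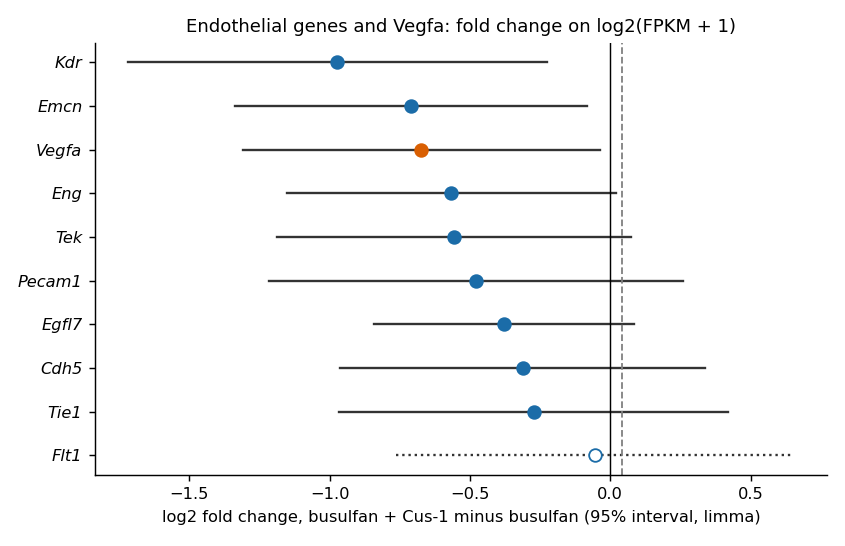
Log2 fold change on log2(FPKM + 1), busulfan + Cus-1 minus busulfan, with its 95% limma interval, for the 9 tested genes (filled) and Flt1 (open, dotted, from a fit of all genes). The dashed line is the median of all tested genes (0.04), and the intervals of Kdr, Emcn and Vegfa (orange) lie below 0 before adjustment, whereas 6 of the 9 tested genes turn positive when libraries are centred on Sertoli genes.

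The direction depended on what the libraries were scaled to. Centring each library on the median of the Sertoli list shifted the all-gene median by 0.64 log2 units, and centring on a list of 26 other endothelial genes moved it by 0.44. Relative to the Sertoli genes, Pecam1, Cdh5, Tek, Tie1, Eng and Egfl7 turned positive (0.08 to 0.37), while Kdr, Emcn and Vegfa were at -0.33, -0.07 and -0.03. Relative to the other endothelial genes, Kdr was at -0.53, Emcn at -0.27, Vegfa at -0.23, Eng at -0.13, Tek at -0.12 and Pecam1 at -0.04, while Cdh5, Tie1 and Egfl7 were at 0.13, 0.17 and 0.06. No adjusted p of the 9 tested genes was under 0.05 in these fits. A centring shifts every gene alike, so the 9 endothelial genes stayed 0.52 log2 units below the median of all genes in both.

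**Figure D4:**
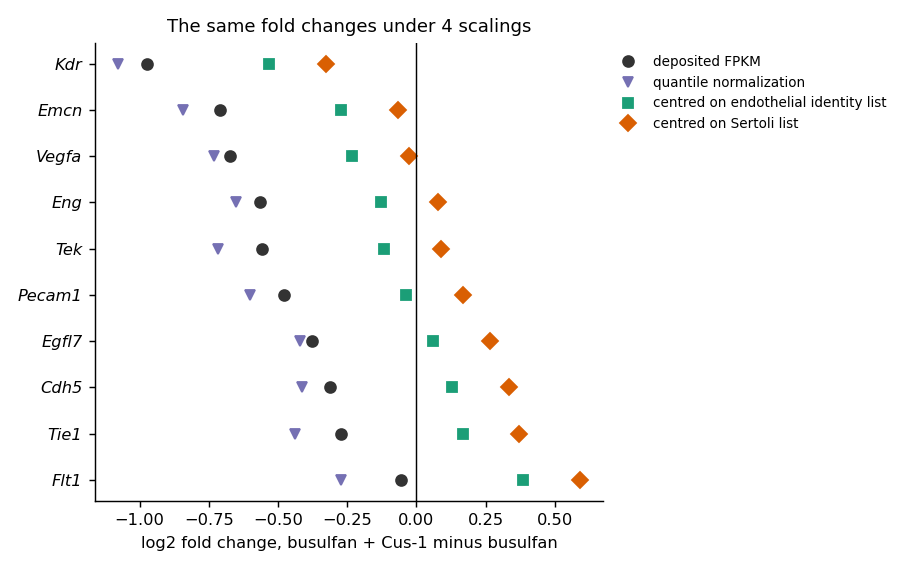
Log2 fold change (busulfan + Cus-1 minus busulfan) of the 10 genes under 4 scalings of the libraries. Kdr, Emcn and Vegfa stay below 0 under each, Emcn and Vegfa at only -0.07 and -0.03 when libraries are centred on Sertoli genes. Pecam1, Cdh5, Tek, Tie1, Eng and Egfl7 cross 0 under that centring, and Flt1, not tested, reaches 0.59. Cdh5, Tie1 and Egfl7 also cross 0 when libraries are centred on endothelial identity genes.

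Several genes ranked the libraries alike, an order picked out after their values were seen. In 7 of the 10 (Pecam1, Kdr, Tek, Tie1, Eng, Emcn and Vegfa) busulfan replicate 1 was highest, then busulfan replicate 2, Cus-1 replicate 2 and Cus-1 replicate 1, as for 19.4% of all tested genes. The summed Sertoli genes had the same order. Egfl7 differed from it by the order of the Cus-1 libraries, and Cdh5 and Flt1 by an overlap of the groups.

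Of 24 other angiogenic ligand genes listed, 13 were tested, with 6 lower in each treated library, 2 higher in both and 5 overlapping, with a median log2 fold change of -0.37 (0.28 when centred on Sertoli genes) and 0 past the adjusted threshold by limma. Of all tested genes 31.7% were lower in both and 36.6% higher in both. The ligand median was -0.15 without busulfan replicate 1 and -0.24 without Cus-1 replicate 1. At an unadjusted limma p under 0.05, 2 were lower and 1 was higher. Vegfb, which binds Flt1, was at 14.5 and 12.0 FPKM in the busulfan pair against 8.21 and 9.82 in the Cus-1 pair. Pgf, the placental growth factor, also a ligand of Flt1, was at 2.32 and 1.90 FPKM in the busulfan pair against 4.42 and 2.58 in the Cus-1 pair, higher in both treated libraries (log2 fold change 0.51, SE 0.29, limma adjusted p = 0.284). The ratio of Pgf to Vegfa FPKM was 0.177 and 0.209 with busulfan and 0.747 and 0.364 with Cus-1. Vegfd, a ligand of Flt4, was the most abundant VEGF gene per length at 24.8 and 26.8 against 13.1 and 26.2 FPKM, with overlapping groups. Prok2, a prokineticin, was the 1 ligand gene higher at that threshold, at 25.1 and 37.5 FPKM in the busulfan pair against 63.2 and 52.2 in the Cus-1 pair (log2 fold change 0.88, SE 0.24, limma adjusted p = 0.152). Tgfb1 was at 31.6 and 22.04 against 15.6 and 18.1 FPKM, and the chemokine gene Cxcl12 at 78.3 and 87.6 against 40.4 and 65.1. Fgf2, Pdgfb and Angpt4 were also lower in both Cus-1 libraries, with log2 fold changes of -0.59, -0.37 and -0.51. Apln, Jag1, Efnb2 and Adm overlapped between the groups.

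Of 21 other receptors and co-receptors 20 were tested, 13 lower in both Cus-1 libraries, 1 higher in both and 6 overlapping. Of all tested genes 31.7% were lower in both and 36.6% higher in both. The receptor median log2 fold change was -0.50 (0.14 when centred on Sertoli genes), and 0 passed the adjusted threshold by limma. Leaving out busulfan replicate 1 gave a median of -0.34, as did leaving out Cus-1 replicate 1. Nrp1, the neuropilin that binds VEGF-A together with Kdr, was at 16.6 and 14.3 FPKM in the busulfan pair against 5.02 and 8.46 in the Cus-1 pair (log2 fold change -1.12, SE 0.28, limma adjusted p = 0.152). The ratio of Nrp1 to Kdr FPKM overlapped, at 2.14 and 2.69 with busulfan and 2.23 and 2.47 with Cus-1. Nrp1, Plxnd1, Itgav, Acvrl1 and Cxcr4 were lower at an unadjusted limma p under 0.05, against 9.96% of all tested genes. Plxnd1, the semaphorin receptor of vessels, was at 20.9 and 24.5 against 14.8 and 14.2 FPKM. Tgfbr2, Bmpr2, Ephb4, Aplnr, Calcrl, Nrp2, Adgrl4 and Itgb3 were lower in both Cus-1 libraries as well. Notch4 was the receptor higher in both, at 3.20 and 3.06 against 4.09 and 3.93 FPKM (log2 fold change 0.28, SE 0.21, limma adjusted p = 0.388). Flt4, the receptor of lymphatic endothelium, overlapped at 2.50 and 1.10 against 1.34 and 1.68 FPKM, as did Notch1, S1pr1, Ramp2, Ackr3 and Robo4.

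Set beside these were 26 further endothelial identity genes, none of which was at 0 in any library. Being above 0 at this depth does not test the endothelial label. Of the 26, 24 were tested, 14 lower in both Cus-1 libraries, 0 higher in both and 10 overlapping. The shares of all tested genes were 31.7% lower in both and 36.6% higher in both. For the identity genes the median log2 fold change was -0.40 (0.25 when centred on Sertoli genes). That median was -0.21 without busulfan replicate 1 and -0.26 without Cus-1 replicate 1. By limma 0 passed the adjusted threshold, and 3 were lower at an unadjusted p under 0.05, against 9.96% of all tested genes. Cd34, a sialomucin also found on stromal cells, was at 34.97 and 28.9 FPKM in the busulfan pair against 18.2 and 22.2 in the Cus-1 pair, and Ecscr, a regulator of endothelial migration, at 5.02 and 4.23 against 2.38 and 2.92. Kank3 overlapped at 44.6 and 38.3 against 45.6 and 38.7 FPKM (log2 fold change 0.02, SE 0.17, limma adjusted p = 0.93). Chosen after their values were seen, the transcription factor genes Sox17 (log2 fold change -0.04, SE 0.24) and Sox18 (-0.04, SE 0.28) overlapped too, while Fli1, a factor of the ETS family, was at 3.08 and 2.61 against 1.21 and 1.78 FPKM.

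Pericyte, lymphatic and inhibitor genes were set beside the endothelial ones. Over all tested genes, 31.7% lay lower in both Cus-1 libraries and 36.6% lay higher in both. At an unadjusted limma p under 0.05 these shares were 9.96% lower and 18.0% higher. Of 9 tested genes listed for pericytes, the cells that wrap capillaries, 6 lay lower in each treated library and 1 lay higher. Their median log2 fold change was -0.66 (-0.02 when centred on Sertoli genes). How much of their RNA came from pericytes was not tested. Rgs5 was at 18.4 and 15.8 FPKM in the busulfan pair against 6.53 and 9.16 in the Cus-1 pair, and Kcnj8, a potassium channel gene, at 2.83 and 3.20 against 1.5 and 1.22, while Ndufa4l2 was at 9.86 and 13.5 against 20.2 and 15.2. Of 4 tested lymphatic genes, Ccl21a, a chemokine of lymphatic vessels, was at 30.2 and 20.0 against 4.80 and 6.19 FPKM (log2 fold change -1.99, SE 0.26) and Pdpn, podoplanin, at 4.28 and 3.25 against 9.07 and 9.93 (1.15, SE 0.22). Reln was higher in both as well, so this list had no common direction, and its median of 0.24 was 0.51 without Cus-1 replicate 1, -0.02 without Cus-1 replicate 2 and 0.13 without busulfan replicate 1. Of 9 tested inhibitors of angiogenesis 5 were lower in both libraries, and 1 was higher, with a median of -0.39 (0.25 when centred on Sertoli genes). That median was -0.13 without busulfan replicate 1 and -0.66 without busulfan replicate 2. Col18a1, whose protein yields endostatin, was at 41.2 and 34.7 against 19.4 and 17.3 FPKM (-1.005, SE 0.17), and Serpinf1, which encodes PEDF, at 65.4 and 63.6 against 38.9 and 42.6. No gene of these lists passed the adjusted threshold by limma, while 3 pericyte genes, 3 inhibitors and 1 lymphatic gene were lower and 1 lymphatic gene was higher at an unadjusted p under 0.05.

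Vegfa is a target of the hypoxia-inducible factors, and genes of that response were set beside it. Of 13 tested genes 8 lay lower in each treated library, 1 was higher and 4 overlapped, with a median log2 fold change of -0.51 (0.13 when centred on Sertoli genes, -0.30 without busulfan replicate 1). Slc2a1, a glucose transporter gene, was at 13.9 and 12.8 FPKM in the busulfan pair against 7.10 and 8.47 in the Cus-1 pair. P4ha1, a collagen prolyl hydroxylase gene, was at 38.3 and 33.9 against 21.2 and 24.9 FPKM, and Ddit4, which restrains mTOR, at 91.5 and 75.6 against 32.8 and 61.6. Bnip3 and Higd1a overlapped. Of 15 tested genes of signalling below the VEGF receptors 11 were lower in both libraries, with a median of -0.35 (0.29 when centred on Sertoli genes, -0.23 without busulfan replicate 1), among them Prkca at 2.88 and 3.14 against 1.70 and 1.55 FPKM. By limma 0 genes of both lists passed the adjusted threshold, and 5 hypoxia and 2 signalling genes were lower at an unadjusted p under 0.05. Among all tested genes 9.96% were lower at that p, 31.7% lay lower in both Cus-1 libraries and 36.6% higher in both. The hypoxia and signalling genes act in many cell types of the testis.

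Other cell types gave medians on either side of the endothelial one. The median log2 fold change was -0.75 for 13 Sertoli, -0.59 for 10 macrophage, -0.50 for 9 Leydig, -0.36 for 3 platelet and -0.28 for 5 red blood cell genes, against 1.004 for 10 spermatocyte and 1.19 for 10 spermatid genes. Centred on Sertoli genes, the macrophage, Leydig, platelet and red blood cell medians were 0.05, 0.15, 0.28 and 0.37. Single libraries moved several of these medians. Without busulfan replicate 1 the red blood cell median was 0.01, the spermatocyte median 0.61 and the macrophage median -0.37. Without busulfan replicate 2 the red blood cell median was -0.89 and the platelet median -0.63. Without Cus-1 replicate 1 the spermatid median was 0.48, the Leydig median -0.28 and the macrophage median -0.39, and without Cus-1 replicate 2 the spermatid median was 1.90, the Leydig median -0.79 and the platelet median -0.84. Red blood cell genes summed to 581 FPKM in busulfan replicate 1, 309 in busulfan replicate 2, and 293 and 262 with Cus-1. Of 7 listed epididymis genes only Spink8 was tested, at 37.4 and 12.7 against 10.4 and 11.03 FPKM, and Adam7 was at no more than 0.04 FPKM. Their part in the endothelial values was not tested.

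**Figure D5:**
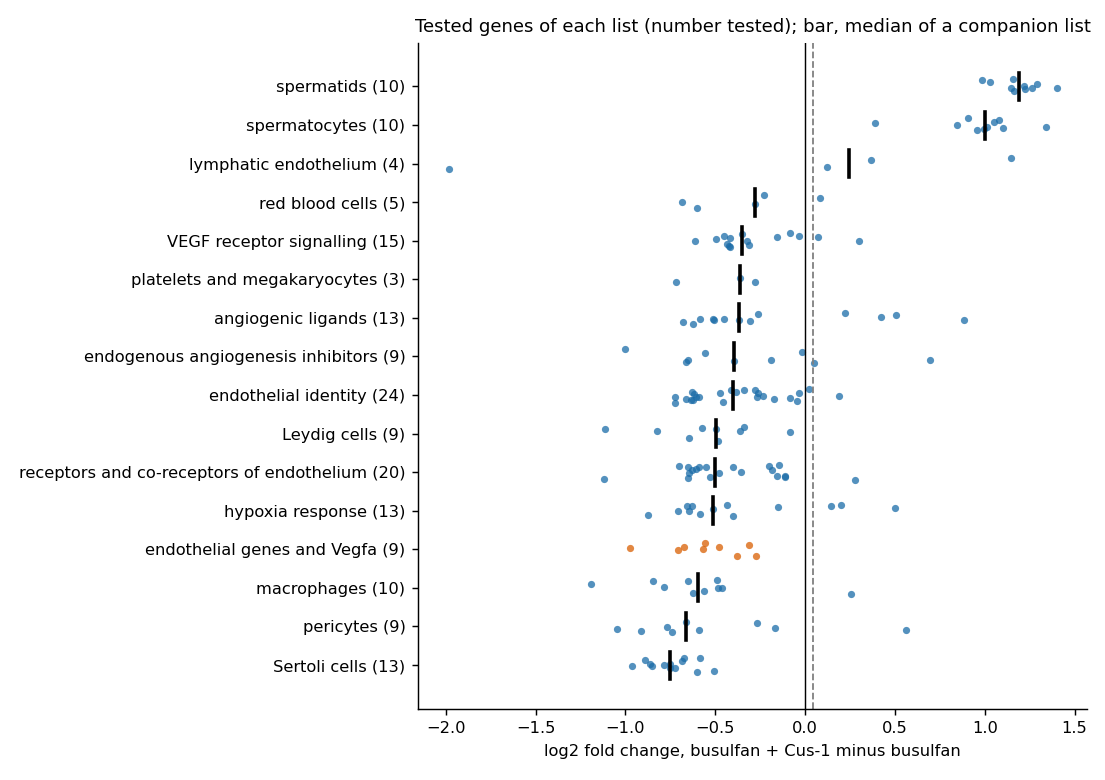
Log2 fold change (busulfan + Cus-1 minus busulfan) of each tested gene in the companion lists (blue, bar at the list median) and of the 9 tested genes among the endothelial genes and Vegfa (orange). The dashed line is the median of all tested genes (0.04). The medians of the endothelial identity, pericyte, Sertoli, Leydig and macrophage lists lie below it, though some single genes lie above it. Centred on Sertoli genes, the endothelial identity, Leydig and macrophage medians turn positive.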

How the data were processed

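RNA from whole testis was sequenced in 4 libraries. The authors deposited 1 table of FPKM values (fragments per kilobase and per 1e+06 mapped fragments) to 2 decimals, and mm10 is the build named per the submitters' processing notes. For the aligner, counter, gene lengths, annotation and strand setting, the answer is not given in the sources used here. Of 45536 rows with values, 910 without a symbol (0.641% to 0.688% of the summed FPKM) were left out, and for 115 symbols on several rows the row with the highest mean was used.

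Symbols reaching 1 FPKM in 2 or more libraries (19837 of 44509) were tested with limma 3.58.1 in R 4.3.3 on log2(FPKM + 1), with a mean-variance trend and Benjamini-Hochberg adjustment over all tested genes at 0.05; the scale understates changes of low genes. Fold changes are busulfan + Cus-1 minus busulfan. The fit was tested on simulated data. Libraries were named by their label, replicates numbered in submission order, and nothing was paired. Depth was estimated from the steps of low FPKM values of genes with 1 transcript, and fragments behind a value from that depth and the longest transcript, so both are approximate and cover counting error only. Positions are from GENCODE M21 (GRCm38).

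The genes described and the companion lists were chosen with earlier results of these data known. Genes named were all 10 and all tested ligands and receptors. Of each other list they were the 3 most abundant and the 2 with the smallest p, not all of which are printed. Genes with values printed outside this rule (Sox17, Sox18, Fli1, Angpt1, Angpt2, Gp9, Ppbp, Adam7, Fpgs and Agpat2) were picked with their values known. Alternatives were a pseudocount of 0.1, no filter, a filter at 5 FPKM, quantile normalization, centring on Sertoli or endothelial identity genes, no trend, and leaving out each library.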

Additional observations from a re-analysis of the deposited data

How the results depend on the processing

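Over 11 alternatives, the 9 tested genes kept a negative log2 fold change in 85 of 94 fits. Changing the filter or leaving out the trend cannot move a fold change. All fits reuse the same 4 libraries, so this count does not measure stability. A missing call in this small design says nothing about stability either. Centred on Sertoli genes, the log2 fold change was 0.17 for Pecam1, 0.33 for Cdh5, 0.088 for Tek, 0.37 for Tie1, 0.078 for Eng and 0.27 for Egfl7, and the median of the 9 endothelial genes was 0.17. Centred on endothelial identity genes it was 0.13 for Cdh5, 0.17 for Tie1 and 0.061 for Egfl7, with a median of -0.038; by construction a centring shifts all genes alike. Quantile normalization moved the median of all genes by -0.10 and left the endothelial median 0.54 below it. Leaving out each library in turn, Kdr ran from -1.21 to -0.74, Vegfa from -0.92 to -0.43 and the endothelial median from -0.68 to -0.27.

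Genes past the adjusted threshold over the whole table numbered 5985 higher and 42 lower centred on Sertoli genes, and 1 and 1 centred on endothelial genes. At an unadjusted p under 0.05 they numbered 9432 and 73 in the former and 6081 and 113 in the latter, against 3576 and 1975. With each library left out, adjusted calls ran from 0 to 1709 higher and from 0 to 580 lower, the most without Cus-1 replicate 2, and unadjusted counts from 1230 to 3895 higher and 374 to 2399 lower. Flt1 was 0.07 without busulfan replicate 2, 0.38 centred on endothelial genes and -0.27 after quantile normalization. The cause of these changes beyond the centring was not tested. With 1 library left in a group, it is assumed to vary like the other group. No paired analysis was possible because the labels give the groups no shared numbers.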
